A study of Homo sapiens with 12 samples.

Results

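The comparison described here sets UBQLN1 knockout (KO) against wild-type (WT) human embryonic stem cells (hESCs) of the line WA26 at 20% O2, across all genes. The members are the 4 libraries of these 2 groups, 2 per genotype, of 8 libraries with counts and of 12 samples that the labels describe. Both genotypes were grown in E8 medium on Matrigel at the oxygen level that the labels call normal, and neither was given NAC. The KO cells were made with Cas9 and a pair of guides to UBQLN1 in WA26 cells, and WT and KO clones were then picked and typed by PCR. The clone behind each library is not named, so the deletion and the history of the clones cannot be told apart, and p-values measure only the spread between libraries. The other 4 libraries with counts are KO cells at 5% O2 and KO cells given NAC, an antioxidant, with 2 libraries each. The spread was estimated from all 8 libraries, so calls, and the lack of a call, also depend on how these treated KO libraries varied.

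Ubiquilin 1, the product of UBQLN1, binds ubiquitin chains with its C-terminal domain and the proteasome with its N-terminal domain, and so carries marked proteins to their degradation. It also takes part in autophagy and holds membrane proteins that have not yet reached the endoplasmic reticulum or the mitochondrion. hESCs divide fast, make and clear much protein, and keep the genes of all lineages silent or nearly so while the pluripotency factors are on.

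RNA-sequencing gave counts of reads per gene, and library totals ran from 31236968 to 41639350 over the 8 libraries. Of 28278 genes, 15916 passed the filter on low counts and entered 1 fit of all 8 libraries by edgeR's quasi-likelihood method. Levels are given as CPM, the counts scaled to library size after TMM, and differences as log2 fold change of KO over WT with the standard error (SE). A gene is called where its p-value, adjusted by Benjamini-Hochberg over all tested genes, was under 0.05. The 10 hESC markers (POU5F1, NANOG, SOX2, LIN28A, DNMT3B, L1TD1, TDGF1, SALL4, EPCAM and CDH1) were present in all 4 libraries, at a summed level of 6494 to 6552 CPM in WT and 6301 to 6545 CPM in KO. Of 7 fibroblast markers, LUM and DCN were at 0 in all 4 libraries, and the sum was 195 to 219 CPM in WT and 205 to 212 CPM in KO, nearly all of it from the collagens COL1A1 and COL1A2.

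UBQLN1 itself had 7382 and 7591 counts in WT and 1559 and 1789 in KO. Its level was 209 ± 17.3 CPM (SD, n = 2) in WT and 42.9 ± 0.85 CPM (SD, n = 2) in KO, which left 20.5% of the WT level. The counts do not show which part of the transcript the remaining reads cover. Of its relatives, UBQLN2 had a log2 fold change of 0.12 (SE 0.11, adjusted p = 0.60) and UBQLN4 of 0.22 (SE 0.10, adjusted p = 0.29), so neither passed edgeR's test. On chromosome 9, 10 tested genes lay within 1 Mb of UBQLN1, itself included. Of the other 9, C9orf64 was higher, with 5.60 and 5.13 CPM in WT against 10.7 and 10.1 CPM in KO (log2 fold change 0.95, SE 0.17, adjusted p = 0.014 by edgeR). The remaining 8 did not pass, with log2 fold changes from -0.65 (GKAP1) to 0.60 (MIR7-1, which had few counts).

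By adjusted p, 213 (1.34%) of all tested genes were called higher in KO than in WT, and 99 (0.622%) were called lower. The study's cut-offs, a log2 fold change beyond 1 and an unadjusted p under 0.05, gave 177 (1.11%) higher and 232 (1.46%) lower when applied to edgeR's values. The study itself used DESeq2 with these cut-offs and reported fewer genes in each direction. The higher genes differed by less: the median size of the log2 fold change was 0.68 among the genes called higher and 1.08 among those called lower, against 0.19 for all tested genes. They were also long, with a median transcript length of 6108 bases against 3099 for the genes called lower and 3771 for all tested genes. In the fifth of genes with the longest transcripts, 104 genes were called higher and 15 lower, and in the fifth with the shortest, 19 were called higher and 25 lower. When counts were first adjusted for a smooth dependence on the length and GC content of transcripts (the length and GC trend), 109 genes were higher and 99 lower, and 103 and 83 of these were among the first calls. The share of calls that were higher moved from 68.3% to 52.4%. KMT2D, a histone methyltransferase with a transcript of 20686 bases, had 101 and 104 CPM in WT against 181 and 155 CPM in KO, and its adjusted p rose from 0.028 to 0.095 without the trend. KMT2D is named after its values were seen.

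**Figure D1:**
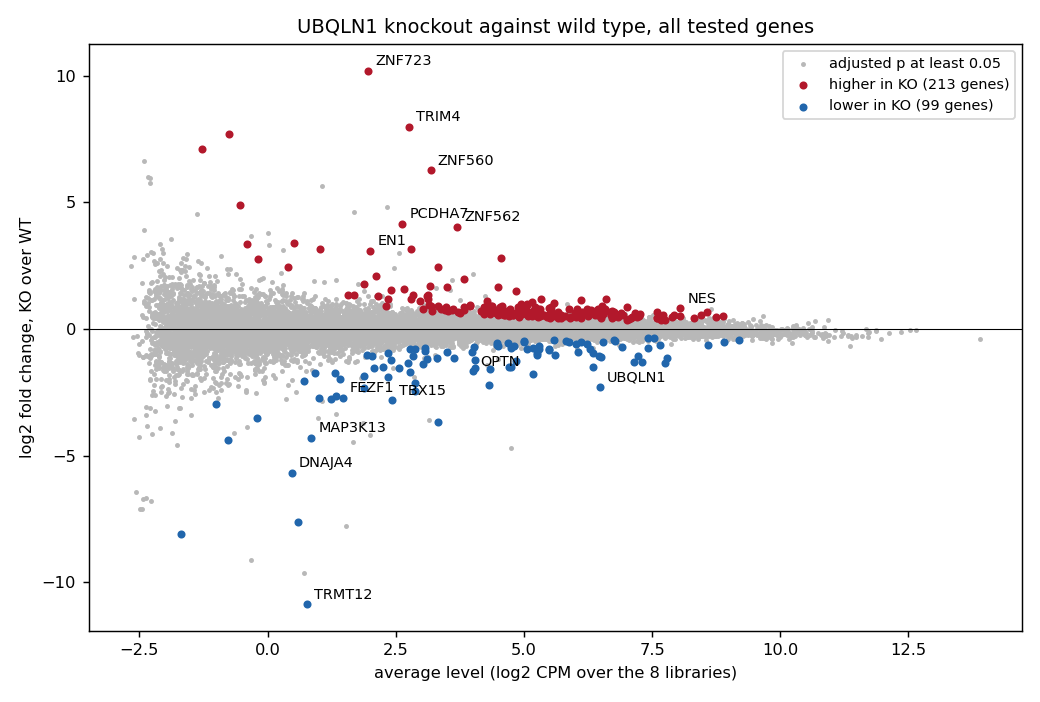
Log2 fold change of KO over WT (y axis) against the average log2 CPM (x axis), with 1 point per tested gene. Red points are the 213 genes called higher and blue points the 99 called lower by adjusted p. Most red points lie below a log2 fold change of 1, and a few genes such as ZNF723, TRIM4 and TRMT12 lie far from all others.

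The calls also depended on having both libraries of each genotype. Leaving out WT replicate 1, WT replicate 2, KO replicate 1 or KO replicate 2 left 29, 33, 32 or 29 genes higher and 49, 42, 34 or 35 lower. In all 4 of these fits, 19 of the 213 higher and 30 of the 99 lower genes kept their call and direction. These 49 are the genes described as kept in every leave-out fit. Each such fit leaves 1 genotype with a single library, which is assumed to vary like the other groups, so its spread comes from the remaining libraries. The 49 include UBQLN1, ZNF723, TRIM4 and TRMT12 with large differences and PAX7, ODC1 and FZD7 with smaller ones. Other large differences, among them LOC728613, AK6, VSIG1, OLIG3, FEZF1, IDO1 and LDHD, kept their call in none of the 4.

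The lower genes were unevenly placed in the genome. Of the 99 lower genes, 24 (24.2%) lay on chromosome X, which holds 581 (3.65%) of the tested genes. On the other chromosomes between 0 and 10 genes were called lower. The 24 were themselves uneven, because 16 of them lay in a single stretch of the long arm that runs from NRK to AMMECR1 (chromosome X, 105821786 to 110440233 in GRCh38, 4.62 Mb). The stretch was found from its values, by extending outward from the lowest median of 15 neighbouring genes in the genome, so its difference is described here and not tested. It holds 25 tested genes, of which 22 had a lower mean in KO and 21 had both KO libraries below both WT libraries (27% of all tested genes did). Its median log2 fold change was -0.91, against -0.05 over the other 556 tested genes of chromosome X, of which 8 (1.44%) were called lower and 4 higher.

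**Figure D2:**
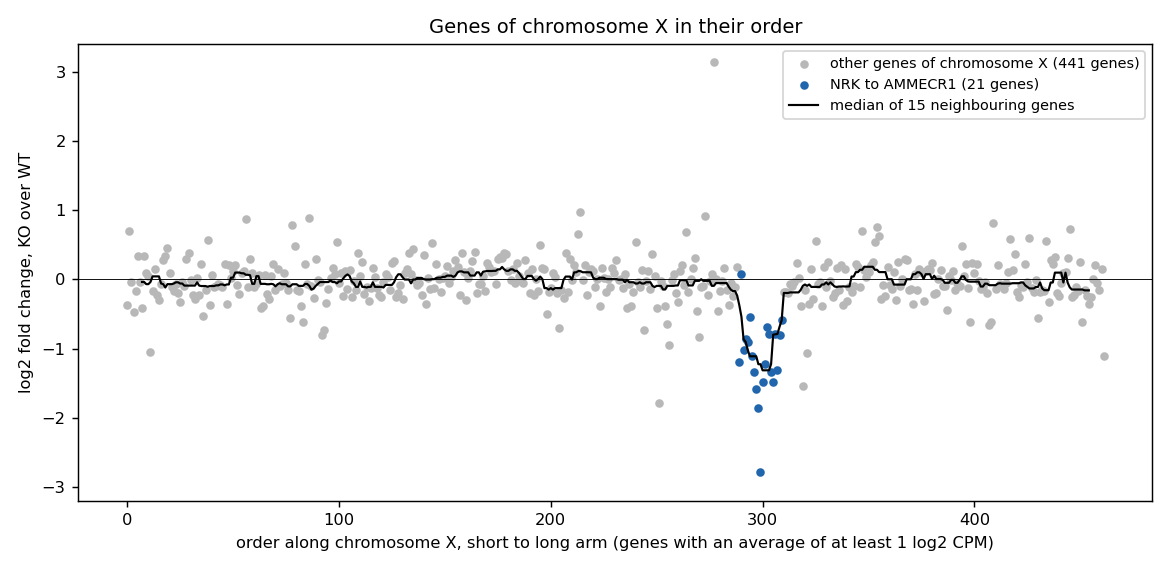
Log2 fold change of KO over WT (y axis) for the genes of chromosome X with an average of at least 1 log2 CPM, in their order from the short to the long arm (x axis). Blue points are the 21 such genes from NRK to AMMECR1, and the black line is the median of 15 neighbouring genes, which falls to -1.31 there and stays near 0 elsewhere.

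PRPS1, which makes the sugar phosphate from which nucleotides are built, was at 352 and 347 CPM in WT and 138 and 137 CPM in KO (log2 fold change -1.34, SE 0.10, adjusted p = 4.3e-05 by edgeR). ACSL4, which activates arachidonic acid for membrane lipids, was at 222 and 209 CPM in WT and 88.8 and 84.4 CPM in KO (log2 fold change -1.31, SE 0.09, adjusted p = 1.8e-05). They were at 39.4% and 40.2% of the WT level, with the libraries of a genotype close together and far from the other genotype. PSMD10, a chaperone in the assembly of the proteasome's regulatory particle, was at 118 and 130 CPM in WT and 43.3 and 45.3 CPM in KO (log2 fold change -1.48, SE 0.12, adjusted p = 4.3e-05). TSC22D3, known as a glucocorticoid-induced gene, fell from 39.3 and 38.0 CPM to 11.95 and 13.9 CPM, and NXT2, which takes part in nuclear export of mRNA, from 44.1 and 38.3 CPM to 14.3 and 15.1 CPM. These 5 genes were kept in every leave-out fit.

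The other called members of the stretch were MID2, a ubiquitin ligase on microtubules (log2 fold change -1.87), TEX13B (-2.78), ATG4A (-1.23), the insulin receptor substrate IRS4 (-1.34), NRK (-1.20), RBM41 (-0.91), MORC4 (-0.86), TMEM164 (-0.80), the basement membrane collagens COL4A5 (-0.79) and COL4A6 (-0.69), and AMMECR1 (-0.59). Of the genes in it with an average of at least 1 log2 CPM, RADX alone had a higher mean in KO (log2 fold change 0.07, adjusted p = 0.91). VSIG1 lay within the stretch and was called higher, but at a very low level, with 0 counts in both WT libraries and 30 and 26 in KO, which is at least 8.66-fold higher against the floor of 3 counts per library. The summed level of all 25 genes was 1138 and 1125 CPM in WT and 507 and 506 CPM in KO. Over the genes of the stretch, the median log2 ratio to the WT libraries was -0.92 in KO at 5% O2 and -0.65 in KO with NAC, beside -0.90 in KO at 20% O2. Single genes departed from it, and AMMECR1 had 75.04 and 97.5 CPM with NAC against 91.1 and 91.5 CPM in WT. All 3 values share the WT libraries.

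Outside the stretch, KLHL4 on chromosome X was at 69.5 and 62.6 CPM in WT and 18.8 and 19.5 CPM in KO (log2 fold change -1.79, SE 0.13, adjusted p = 3.0e-05), and NLGN4X, a postsynaptic adhesion protein, at 250.2 and 233 CPM against 119 and 114 CPM (log2 fold change -1.05). Both were kept in every leave-out fit. LRCH2 had a log2 fold change of -1.53, and KLHL4 and LRCH2 are named after their values were seen. In the other direction on the same chromosome, TCEAL5 rose from 0.57 and 0.18 CPM to 3.06 and 3.50 CPM.

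Some called genes share a start region. Among 989 pairs of tested genes whose transcripts start within 500 bases of each other and run in opposite directions, 3 pairs had both genes called, and in all 3 both were lower. They were PSMD10 and ATG4A (starts 236 bases apart), COL4A6 and COL4A5 (380 bases) and CCDC3 and OPTN on chromosome 10 (93 bases). The first 2 pairs lie in the stretch on chromosome X. In 21 other pairs, 1 gene was called and its partner was not. The annotated spans of PSMD10 and ATG4A overlap and the counting ignored strand, so reads in the overlap cannot be told apart. Start positions came from RefSeq and were known for 77.6% of the tested genes, which is under the 80% needed to compare start sequences between called and other genes, so that planned comparison is void. For PSMD10 with ATG4A and CCDC3 with OPTN, the start regions are printed here as RefSeq windows (GRCh38.p14) from 250 bases before to 50 bases after the start of the gene on the plus strand, 5′ to 3′, because each window holds the starts of both genes of a pair. Capitals mark CG dinucleotides.
ATG4A: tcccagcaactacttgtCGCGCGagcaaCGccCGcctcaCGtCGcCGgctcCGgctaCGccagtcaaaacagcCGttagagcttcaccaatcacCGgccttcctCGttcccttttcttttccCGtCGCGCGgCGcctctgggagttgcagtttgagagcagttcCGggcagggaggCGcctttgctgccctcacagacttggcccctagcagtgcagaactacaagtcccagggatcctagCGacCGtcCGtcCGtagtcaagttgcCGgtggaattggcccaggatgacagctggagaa
OPTN: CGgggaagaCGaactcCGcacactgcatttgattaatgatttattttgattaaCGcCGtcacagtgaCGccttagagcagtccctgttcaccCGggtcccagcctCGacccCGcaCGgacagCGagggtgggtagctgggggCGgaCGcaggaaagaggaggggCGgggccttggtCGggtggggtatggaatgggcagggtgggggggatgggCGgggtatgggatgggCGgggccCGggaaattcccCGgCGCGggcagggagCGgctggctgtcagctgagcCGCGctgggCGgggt
The ATG4A window (chrX:108091528-108091827) and the OPTN window (chr10:13099832-13100131) each hold 25 CG, and 32% of 35116 RefSeq windows of this length hold at least as many.

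OPTN encodes optineurin, a receptor that links ubiquitin-marked cargo, damaged mitochondria among it, to the growing autophagosome. It was at 32.1 and 30.8 CPM in WT and 9.62 and 10.2 CPM in KO (log2 fold change -1.67, SE 0.21, adjusted p = 0.0015 by edgeR), and was kept in every leave-out fit. CCDC3 beside it fell from 10.5 and 7.75 CPM to 3.14 and 3.13 CPM (log2 fold change -1.54, SE 0.24, adjusted p = 0.0077). The tested genes next to this pair on either side were not called.

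OPTN and ATG4A were the only called members among 49 tested autophagy and lysosome genes (4.08%, against 1.96% of all tested genes), and both were lower. ATG4A lies in the stretch on chromosome X. The list's median log2 fold change was -0.07, against -0.00 over all tested genes, and the cargo receptor SQSTM1 had 148 and 146 CPM in WT against 145 and 160 CPM in KO. Of 44 tested proteasome genes, PSMD10 alone was called, and the median was -0.13. The other 43 had log2 fold changes from -0.26 to 0.16. At an unadjusted p under 0.05, 0 proteasome genes were higher and 7 lower, and DESeq2 called 2 lower. The autophagy and lysosome list had 2 higher and 10 lower at that p, and DESeq2 called 1 higher and 2 lower. Of all tested genes, 9.5% were higher and 8.12% lower at that unadjusted p. Among 16 other shuttle and ubiquitin genes, 2 were higher. DDI2, a shuttle protease that activates a transcription factor of proteasome genes, rose from 67.7 and 61.6 CPM to 91.5 and 82.9 CPM (log2 fold change 0.43, SE 0.09, adjusted p = 0.041), a call that was lost without the length and GC trend (adjusted p = 0.069). BAG6, which shields exposed membrane segments, rose from 13.1 and 9.98 CPM to 28.5 and 44.5 CPM, but 81.9% of its transcript's 31-base words also occur on alternate-locus scaffolds of hg38, so its counts depend on how the authors' alignment treated them.

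Other lists of protein quality control gave few calls. None of 40 tested heat shock and J-domain genes, a list without DNAJA4, passed edgeR's test (1 higher and 5 lower at an unadjusted p under 0.05, which 9.5% and 8.12% of all tested genes reached, and 0 higher and 1 lower by DESeq2). The median was -0.06. None of 30 genes of the integrated stress response passed (0 higher and 7 lower at an unadjusted p under 0.05, 0 by DESeq2), with a median of -0.16. Of 26 unfolded protein response genes DERL3 alone was called, higher, on 6 and 2 counts in WT and 29 and 69 in KO, with 96.9% of its words on alternate-locus scaffolds.

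A small set of genes was present in 1 genotype and at or near 0 in the other. With at most 3 counts in both libraries of a genotype and at least 30 in both of the other, 3 genes were found in KO only and 5 in WT only. TRIM4, of a family of ubiquitin ligases, had 0 and 2 counts in WT and 303 and 313 in KO, at least 94.8-fold higher against the floor of 3 counts per library. ZNF723, of the zinc finger family on chromosome 19, had 0 and 0 counts in WT and 136 and 183 in KO, at least 48.7-fold higher. The third, the pseudogene WASH8P, had 0 and 3 counts against 64 and 38 and is 85.4% covered by alternate-locus words, and its call was lost without the length and GC trend (adjusted p = 0.055). TRIM4 and ZNF723 were kept in every leave-out fit, and in the 4 KO libraries at 5% O2 or with NAC they had 252 to 549 and 112 to 260 counts.

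Of the genes found in WT only, TRMT12 encodes an enzyme of the pathway that makes wybutosine, a bulky base beside the anticodon of phenylalanine tRNA. It had 184 and 284 counts in WT and 0 and 0 in KO, at least 83.8-fold lower (adjusted p = 1.8e-04 by edgeR), and the other 4 KO libraries had at most 0.19 CPM. A second gene of that pathway, TYW1B, was also lower, with 9.05 and 10.6 CPM in WT against 1.79 and 2.11 CPM in KO (log2 fold change -2.33, SE 0.26, adjusted p = 7.0e-04). These 2 are 28.6% of the list's 7 genes, against 0.622% of all tested genes called lower. The other 5 genes of the list were not called, and the list's median was -0.09. TYW1B has a near-identical copy, TYW1, so reads may be assigned to the wrong one.

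S100A6, TWIST2 and AK6 met the same rule but varied among the KO libraries. S100A6, a calcium-binding protein of proliferating and mesenchymal cells, had 228 and 230 counts in WT and 2 and 0 in KO (adjusted p = 0.054), yet 369 in replicate 1 of KO with NAC. The mesenchymal transcription factor TWIST2 had 53 and 88 counts in WT and 0 and 0 in KO (adjusted p = 0.074), and again 78 in the same NAC library and 0 in the other. AK6 had 130 and 100 counts in WT, 1 and 0 in KO and 189 in replicate 1 of KO at 5% O2, with 93.2% of its words on alternate-locus scaffolds, and its call was lost without the length and GC trend (adjusted p = 0.060). Neither S100A6 nor TWIST2 passed the test over 8 libraries. The fifth gene, LOC728613, had 31 and 37 counts in WT and 0 and 0 in KO.

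With a floor of 10 counts in place of 3, 6 genes were found in KO only and 12 in WT only. Among those added, ZNF560 had 3 and 6 counts in WT and 355 and 419 in KO (log2 fold change 6.27, SE 0.30, adjusted p = 2.0e-06), and DNAJA4, a J-domain partner of HSP70 chaperones, had 164 and 177 counts in WT and 3 and 4 in KO (log2 fold change -5.68, SE 0.58, adjusted p = 4.2e-04). ALX1, a homeobox factor of the facial mesenchyme, had 61 and 61 counts in WT and 6 and 0 in KO. MAP3K13, a kinase above JNK, fell short of the rule but was at 5.0% of WT (6.68 and 5.47 CPM against 0.22 and 0.39 CPM, log2 fold change -4.30). DNAJA4, ZNF560 and MAP3K13 were kept in every leave-out fit, and DNAJA4 and MAP3K13 are named here after their values were seen.

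**Figure D3:**
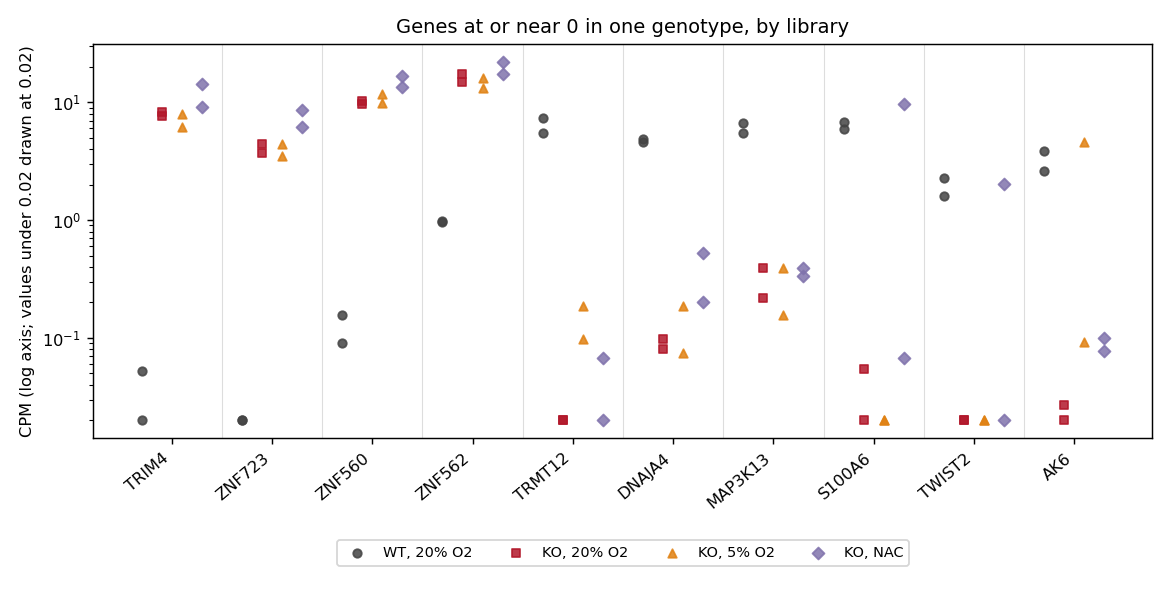
CPM on a log axis (y axis) in each of the 8 libraries for 10 genes (x axis), with values under 0.02 drawn at 0.02 and symbols for WT at 20% O2, KO at 20% O2, KO at 5% O2 and KO with NAC. TRIM4, ZNF723, ZNF560 and ZNF562 are high in all 6 KO libraries, TRMT12, DNAJA4 and MAP3K13 are low in all 6, and S100A6, TWIST2 and AK6 each return in 1 KO library.

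ZNF560 lies on chromosome 19 near ZNF562, which rose from 0.96 and 0.99 CPM to 17.2 and 14.8 CPM (log2 fold change 4.04, SE 0.21, adjusted p = 2.5e-06). Both encode zinc finger proteins of a family that is known mainly for repressing mobile elements. Between them lie ZNF426, ZNF121 and ZNF561, with log2 fold changes of 0.30, 0.36 and -0.05 (adjusted p = 0.35, 0.27 and 0.82), which were not called. In the whole family of genes named ZNF, 8 of 495 tested were called, all higher (1.62%, against 1.34% of all tested genes called higher), and the median was 0.10. The others called were ZNF681 (log2 fold change 0.85), ZNF316 (0.86), ZNF629, ZNF423 and ZNF512B, and the last 4 lost their call without the length and GC trend. DESeq2 called 15 higher and 1 lower. The windows at the starts of ZNF560 and ZNF562 (chr19:9498567-9498866 and chr19:9675051-9675350, both on the minus strand) are shown because these near neighbours both rose while the genes between them were not called. Capitals again mark CG, of which they hold 16 and 18.
ZNF560: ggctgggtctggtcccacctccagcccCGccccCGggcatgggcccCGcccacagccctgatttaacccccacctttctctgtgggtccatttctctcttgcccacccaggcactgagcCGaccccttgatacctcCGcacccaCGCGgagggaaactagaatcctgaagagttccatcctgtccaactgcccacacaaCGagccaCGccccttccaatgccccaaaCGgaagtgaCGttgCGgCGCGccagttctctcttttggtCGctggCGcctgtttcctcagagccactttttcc
ZNF562: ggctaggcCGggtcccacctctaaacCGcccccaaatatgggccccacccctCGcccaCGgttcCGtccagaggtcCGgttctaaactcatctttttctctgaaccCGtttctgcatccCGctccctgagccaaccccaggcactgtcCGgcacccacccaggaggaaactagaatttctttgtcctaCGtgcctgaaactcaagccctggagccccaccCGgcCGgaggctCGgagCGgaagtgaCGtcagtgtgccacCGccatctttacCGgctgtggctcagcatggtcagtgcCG
At least as many CG occur in 47.5% and 44.5% of all windows.

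Genes that pattern the embryo moved in both directions. Of 37 tested neural ectoderm genes, 5 were higher and 2 lower (1.96% of all tested genes were called in either direction), and the list's median was 0.23. EN1, a homeobox factor of the midbrain and hindbrain, rose from 0.66 and 0.73 CPM to 5.72 and 6.22 CPM (log2 fold change 3.10, SE 0.29, adjusted p = 2.2e-04). SIX6, of the eye field, rose from 55.9 and 59.5 CPM to 119 and 139.6 CPM (log2 fold change 1.17, SE 0.14, adjusted p = 0.0010). The neural progenitor genes POU3F1 (31.2 and 32.5 CPM against 52.3 and 63.1 CPM), NES (266 and 226 against 451 and 422 CPM) and SOX11 (138 and 142 against 190.01 and 201 CPM) rose less, and the call for SOX11 was lost without the length and GC trend (adjusted p = 0.083). EN1 and SIX6 were kept in every leave-out fit.

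The 2 lower neural genes were FEZF1, a forebrain zinc finger factor, from 7.43 and 8.45 CPM to 1.14 and 1.26 CPM (log2 fold change -2.72, SE 0.44, adjusted p = 0.0092), and STMN2, a tubulin-binding protein of growing neurites, from 16.5 and 15.3 CPM to 4.91 and 4.81 CPM (log2 fold change -1.71). FEZF1-AS1, which overlaps FEZF1 on the other strand, had a log2 fold change of -2.66. As the counting ignored strand, reads that lie in both genes cannot be told apart. Of the other neural markers, PAX6 had at most 0.104 CPM and NEUROD1 at most 0.054 CPM in the 4 libraries, and DCX had 6.34 to 7.26 CPM. SOX1 had 5.04 and 7.99 CPM in WT and 9.16 and 11.1 CPM in KO (adjusted p = 0.40).

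Of 18 tested spinal cord genes, PAX7 of the dorsal neural tube (22.3 and 23.6 CPM against 41.8 and 45.8 CPM) and OLIG3 of the same region (4.74 and 5.73 against 19.7 and 21.0 CPM) were called, both higher. Beside this list and the next 2, 1.34% of all tested genes were called higher and 0.622% lower. The spinal cord list had a median of 0.51, and 16 of its 34 members in the table had too few counts to be tested. In the neural crest and mesenchyme list, 2 of 23 were called, both lower. TBX15, which shapes limb and skull, fell from 11.96 and 12.7 CPM to 1.98 and 1.53 CPM (log2 fold change -2.81, SE 0.29, adjusted p = 4.2e-04), and ALX1 was described above, its call lost without the length and GC trend (adjusted p = 0.056). The list's median was 0.01, and DESeq2 called 2 higher and 2 lower. Of 23 mesoderm genes, KDR, a receptor of vascular growth factor, was lower at 116 and 121 CPM against 67.8 and 67.7 CPM, and the Wnt target SP5 was higher, on 2 and 2 counts in WT and 24 and 23 in KO (at least 7.25-fold). Called homeobox genes outside these lists included BARX1 (log2 fold change 1.15), HMX1 (0.81) and HMX2 (1.32), all higher and named after their values were seen. They are examples and not all such genes, since IRX4 and ZFHX3, among others, were called higher too.

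**Figure D4:**
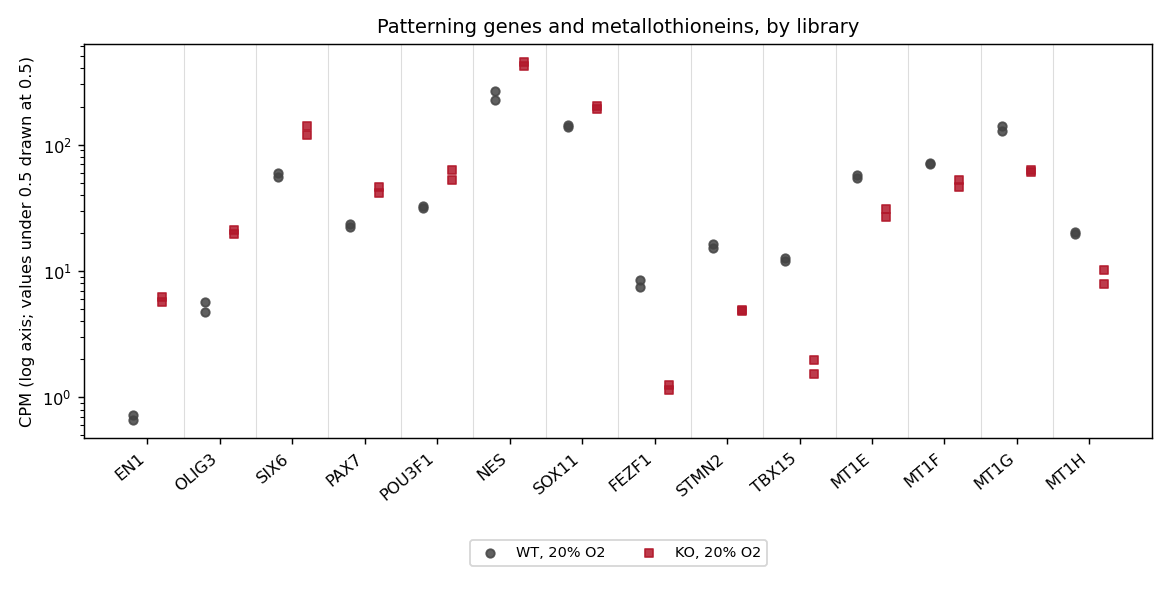
CPM on a log axis (y axis) for 10 patterning genes and 4 metallothioneins (x axis) in the 2 WT (grey) and 2 KO (red) libraries at 20% O2, with values under 0.5 drawn at 0.5. The KO points lie above the WT points from EN1 to SOX11 and below them from FEZF1 to MT1H, with no overlap.

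Pluripotency genes gave no call. None of 34 tested pluripotency genes passed edgeR's test (4 higher and 4 lower at an unadjusted p under 0.05, 0 by DESeq2), and the median was -0.07. Of all tested genes, 9.5% were higher and 8.12% lower at that unadjusted p. POU5F1 was at 147 and 195 CPM in WT and 143 and 148 CPM in KO (log2 fold change -0.23, SE 0.18), NANOG at 135 and 134 against 155 and 154 CPM (0.20, SE 0.09), and SOX2 at 334 and 315 against 286 and 299.8 CPM (-0.15, SE 0.10). POU5F1 has near-identical pseudogenes, and 87.8% of its words occur on alternate-locus scaffolds. None of 10 tested endoderm genes, 8 amnion and trophoblast genes or 15 germline genes passed (0, 2 and 1 higher and 2, 0 and 2 lower at an unadjusted p under 0.05, and 0, 0 and 1 by DESeq2). Outside this list, the Wnt receptor FZD7 fell from 244 and 238 CPM to 143 and 143 CPM (log2 fold change -0.75, SE 0.09, adjusted p = 0.0011) and APELA, a secreted peptide of hESCs, from 24.1 and 22.8 CPM to 9.89 and 10.01 CPM (log2 fold change -1.24). FZD7 and APELA are named after their values were seen. Both were kept in every leave-out fit and, like KDR, were lower in KO.

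The metallothioneins, small cysteine-rich proteins that bind zinc and copper and lie side by side on chromosome 16, gave 4 calls. Of 16 genes of iron and metal handling, these 4 were called, all lower (25%, against 0.622% of all tested genes called lower), and the median was -0.27. MT1G was at 139 and 128 CPM in WT and 62.7 and 60.8 CPM in KO (log2 fold change -1.11, SE 0.14, adjusted p = 0.0015). MT1H was at 19.7 and 20.4 CPM against 7.89 and 10.1 CPM (-1.15), MT1E at 57.8 and 54.4 against 26.7 and 30.9 CPM (-0.96), and MT1F at 70.1 and 70.9 against 46.5 and 52.3 CPM (-0.51). MT1X (-0.49, adjusted p = 0.05004), MT1M (-0.66, adjusted p = 0.42) and MT2A (-0.35, adjusted p = 0.12) did not pass but had lower means in KO. The other 9 genes of the list were not called. Among them TFRC, which takes up iron, had a log2 fold change of -0.19 and the ferritin genes FTL and FTH1 of -0.13 and 0.05. The window of 15 genes from MT2A to PLLP had a median of -0.48, the lowest outside chromosome X among 11999 windows. MT1G was kept in every leave-out fit.

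Mitochondrial lists gave few calls. None of 38 complex I genes was called (0 higher and 9 lower at an unadjusted p under 0.05, 2 lower by DESeq2), and none of 40 genes of complexes II to V (0 higher and 23 lower at an unadjusted p under 0.05, 10 lower by DESeq2). Of all 15916 tested genes, 8.12% were lower at that unadjusted p, and DESeq2 called 315 lower. Small decreases were widespread, as 32 of 38 complex I genes and 38 of 40 genes of complexes II to V lay below 0. Their medians of -0.14 and -0.22 moved to -0.08 and -0.10 when the length and GC trend was removed. Of 77 genes of the mitochondrial ribosome MRPS36 alone was called (log2 fold change -0.72, adjusted p = 0.036), a call that was lost without the trend (adjusted p = 0.18), and 91.1% of its words occur on alternate-locus scaffolds. CHCHD2, which binds cytochrome c oxidase and is also a nuclear regulator of its subunits, was at 290.4 and 347 CPM in WT and 132 and 152 CPM in KO (log2 fold change -1.16, SE 0.12, adjusted p = 3.9e-04). CHCHD2 is named after its values were seen, was kept in every leave-out fit, and has 38.9% of its words on alternate-locus scaffolds. None of 33 import genes, 23 genes of the citric acid cycle, 21 of mitochondrial DNA and biogenesis or 17 of fusion and fission passed edgeR's test (0, 0, 2 and 0 higher and 4, 5, 1 and 3 lower at an unadjusted p under 0.05, and 0, 2, 0 and 0 by DESeq2).

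Of 40 antioxidant genes NQO1, a quinone reductase and target of NRF2, was called, from 55.2 and 54.6 CPM to 88.0 and 95.0 CPM (log2 fold change 0.74, SE 0.11, adjusted p = 0.0044). The list's median was -0.10, and 28 of its 40 genes lay below 0. At an unadjusted p under 0.05, 2 of them were higher and 9 lower, and DESeq2 called 1 higher and 4 lower. Of all tested genes, 9.5% were higher and 8.12% lower at that unadjusted p. Ribosomal protein genes had a median of -0.21, or -0.12 without the trend, and 78 of 83 tested lay below 0. RPS27 alone was called, lower, a call that was lost without the trend (adjusted p = 0.22), while an unadjusted p under 0.05 was reached by 43 lower and 1 higher gene and DESeq2 called 15 lower.

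Genes of genome care and telomeres gave no call. None of 47 replication, 42 DNA damage response, 30 p53 target or 25 telomere genes passed edgeR's test (2, 2, 2 and 2 higher and 5, 4, 6 and 2 lower at an unadjusted p under 0.05, and 1, 1, 2 and 1 by DESeq2, all higher). Their medians lay between -0.07 and 0.06. Of all tested genes, 9.5% were higher and 8.12% lower at an unadjusted p under 0.05. The shelterin gene TERF1 was at 563 and 623 CPM in WT and 498 and 499.7 CPM in KO (log2 fold change -0.25, SE 0.16), and TERF2 at 23.4 and 25.6 against 24.99 and 26.3 CPM (0.07, SE 0.11). Of 33 mitosis genes MKI67 was called, higher (97.1 and 80.9 CPM against 166 and 119.9 CPM) on a transcript of 12716 bases, a call that was lost without the length and GC trend (adjusted p = 0.084).

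Surface and matrix genes changed in a few members of each list. Of 49 tested clustered protocadherins, which give nerve cells their surface identity, 5 were higher (10.2%, against 1.34% of all tested genes) and none lower, with PCDHA7 at 0.42 and 0.36 CPM in WT against 7.37 and 6.68 CPM in KO and PCDHB5 at 3.78 and 5.55 against 30.7 and 34.5 CPM. The list's median was 0.78, and 44 of 49 had a positive log2 fold change. Without the length and GC trend 3 of the calls remained, PCDHB9 and PCDHGA11 being lost. Of 73 extracellular matrix genes, 3 were called (4.11%, against 1.96% of all tested genes). ITGA9 was higher, and COL4A5 and COL4A6 of the stretch on chromosome X were lower. CCN2 and CCN1, matricellular genes that respond to YAP, were the only called members of 27 early response genes (7.41%), and both were lower. The early response list as a whole did not fall, with a median of 0.19 and 18 of its 27 genes above 0. At an unadjusted p under 0.05 by edgeR 5 of them were higher and 2 lower, and DESeq2 called 3 higher and 2 lower. CCN2 was at 39.9 and 41.6 CPM in WT and 13.5 and 15.4 CPM in KO (log2 fold change -1.50, SE 0.12, adjusted p = 7.3e-05), and CCN1 at 43.4 and 47.2 against 27.7 and 29.2 CPM.

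Of 30 genes of antigen presentation and interferon response, 3 were called (10%, against 1.96% of all tested genes). HLA-B was lower (30.4 and 29.0 CPM against 9.57 and 11.1 CPM) and BST2 and IRF7 were higher. The call for IRF7 was lost without the length and GC trend (adjusted p = 0.058). HLA-B and IRF7 have 80.4% and 87.7% of their words on alternate-locus scaffolds, and other HLA genes share reads with HLA-B. Over all genes, such scaffolds hold at least 10% of the words of 15 (7.04%) of the genes called higher, 8 (8.08%) of those called lower and 1008 (6.33%) of those tested.

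The other large differences were single genes of metabolism and signalling. FAAH, which breaks down endocannabinoids, fell from 40.5 and 51.2 CPM to 9.32 and 10.4 CPM (log2 fold change -2.22, SE 0.25, adjusted p = 7.1e-04). LDHD, a D-lactate dehydrogenase, had a log2 fold change of -1.98, IDO1, which degrades tryptophan, of -2.14, and VAT1L of -2.43. PAWR, a regulator of cell death, was at 279.9 and 249 CPM in WT and 107 and 108 CPM in KO (log2 fold change -1.30, SE 0.09, adjusted p = 1.8e-05). Among the rises, ODC1, the enzyme that opens polyamine synthesis, went from 176 and 184 CPM to 281 and 294 CPM (log2 fold change 0.67), EMC4 of the membrane insertion complex of the endoplasmic reticulum from 23.8 and 26.9 CPM to 51.1 and 51.0 CPM (1.01), and NSMCE1 of the SMC5/6 complex from 18.1 and 15.5 CPM to 33.9 and 37.3 CPM (1.08). FAAH, PAWR, ODC1, EMC4 and NSMCE1 were kept in every leave-out fit, and all but FAAH are named after their values were seen.

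Other lists gave 0 to 2 calls each. None of 21 glycolysis, 32 hypoxia response, 30 sterol synthesis, 54 translation factor, 36 imprinted or 39 histone genes passed edgeR's test (2, 3, 1, 2, 4 and 0 higher and 5, 1, 5, 11, 0 and 1 lower at an unadjusted p under 0.05, and 1, 1, 1, 4, 2 and 0 by DESeq2). Their medians ran from -0.13 to 0.09. Among 29 genes of DNA methylation TET3, which oxidises methylated cytosine, was higher (log2 fold change 0.52, adjusted p = 0.041), and among 37 genes of signalling feedback SPRY4, which damps FGF signals, was higher beside SP5 (0.36, adjusted p = 0.040). Both calls were lost without the length and GC trend. Of 44 cadherins outside the clusters PCDH18 was lower (-0.77, adjusted p = 0.026).

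The medians of all lists are gathered in the plot of gene lists, where the all-gene median is -0.00. Of the 19 tested genes that the study's text names, which is no independent choice, UBQLN1 was lower, NES and MYH9 were higher, and the other 16 were not called. The call for MYH9 was lost without the length and GC trend (adjusted p = 0.095).

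**Figure D5:**
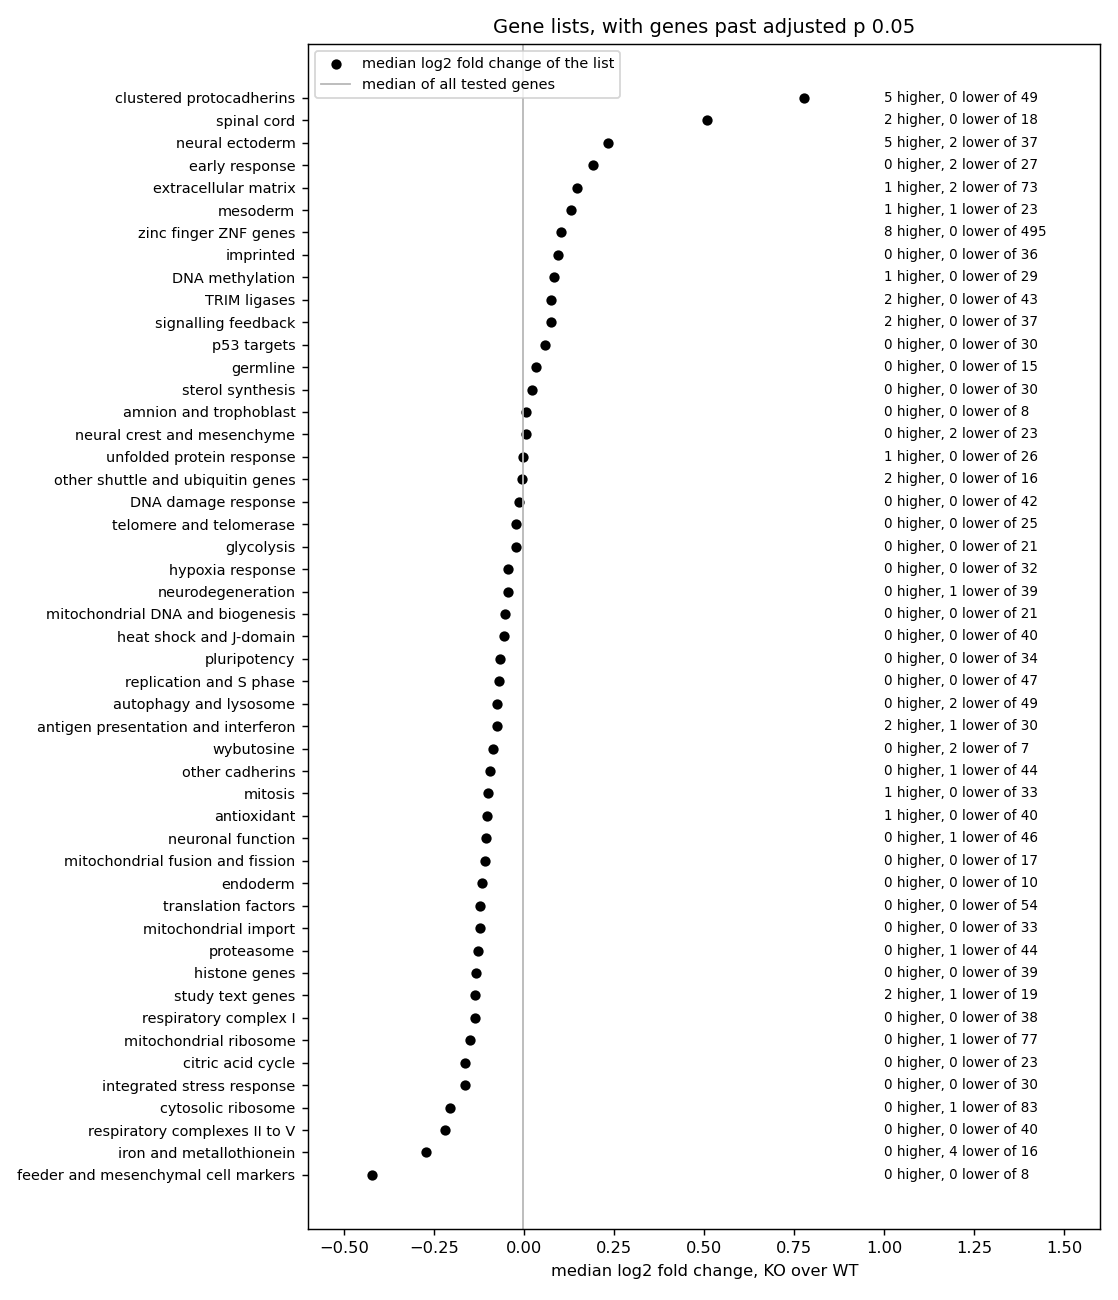
Median log2 fold change of KO over WT (x axis) for each gene list with at least 5 tested members (y axis), with the number of genes called higher and lower at the right and the median of all tested genes as a grey line. Clustered protocadherins and spinal cord genes lie highest, the metal and respiratory lists lie low, and most lists have 0 to 2 calls. The 8 tested feeder and mesenchymal markers lie lowest, with no call, and their median turned sign in at least 1 alternative run.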

How the data were processed

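RNA was sequenced from 8 libraries in 4 groups of 2, and groups were taken from the sample labels. The authors used trim-galore for trimming and HISAT2 for alignment (hg38), and deposited raw counts per gene from featureCounts at default settings, which ignore strand. The annotation is not given in the sources used here. From the deposited counts, genes were filtered (filterByExpr, minimum count 10), scaled by TMM and tested with edgeR 4.0.16 in R 4.3.3 (quasi-likelihood, 1 term per group, no replicate block, 4 residual degrees of freedom), with Benjamini-Hochberg adjustment over 15916 genes. SE was taken as the size of the log2 fold change over the root of the F statistic. The biological coefficient of variation was 13.71%. Libraries of a group differed by more than sampling noise (chi-square per degree of freedom 8.215 to 26.19). On simulated data, 89 of 100 genes changed 2-fold, 100 of 100 changed 4-fold and 5 of 15435 unchanged genes were called. The simulation gave genes of like level the same spread and drew the changed genes only from those over 2 CPM on average. It therefore does not give the rate of found or false calls in the real data. DESeq2 1.42.0 was an alternative.

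The groups, the gene lists and the tests were chosen with earlier results of these data known. Genes named were UBQLN1, the genes in the study's text, the 12 largest called changes in each direction, up to 6 called members of each list by smallest p or up to 3 by highest level where none was called, and genes present in 1 genotype only. Others are named as members of a described list, stretch, gene pair or neighbourhood, or after their values were seen, which is not said for each. Alternate-locus overlap is the share of a transcript's 31-base words found on hg38 alternate scaffolds. Floors of 3 counts cover counting error only.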

Additional observations from a re-analysis of the deposited data

How the results depend on the processing

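UBQLN1 was lower in every alternative run, with log2 fold changes from -2.37 to -2.20. Genes called higher and lower by adjusted p (213 and 99) came to 545 and 315 with DESeq2, 782 and 470 with no filter on low counts, 738 and 386 with only the 4 libraries at 20% O2, 43 and 46 at an adjusted p under 0.01, and 567 and 481 with the 4 libraries and the length and GC trend removed (this alternative was added once the data had been seen). With the trend alone removed 109 were higher, and with genes on alternate scaffolds removed 324 were higher. Leaving out 1 library gave 29 to 33 higher and 34 to 49 lower. Under the fold rule (177 and 232), at least 10 counts in every library gave 103 and 130. That filter also moved the median of the stretch on chromosome X from -0.91 to -1.07. A floor of 10 counts gave 6 and 12 genes present in 1 genotype only in place of 3 and 5. Upper quartile scaling gave 160 and 105. The cause of these moves was not tested.

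The only genes that changed sign, all of them not called, were 3 of the 118 named genes followed through the alternatives. Without 1 library, PWWP3B ran from -0.75 to 0.29, RADX from -0.15 to 0.27 and SQSTM1 from -0.021 to 0.13, with signs turned without WT replicate 2 (PWWP3B, RADX), KO replicate 1 (PWWP3B, RADX) or KO replicate 2 (SQSTM1). Of 53 medians over gene groups, 17 turned sign in at least 1 alternative, 41 of 742 values in all. The sign of a median near 0 is therefore not stable, and some larger medians turned as well. Those turned include the p53, telomere, DNA damage and sterol lists. Also turned were the feeder list (median -0.42, 8 tested genes) and the HOX genes (-0.62, 3 tested genes). With the replicate number as a block, 257 genes were higher and 109 lower, of which 207 and 97 were among the first calls. Deviations of same-numbered WT and KO libraries had a correlation of 0.032, so the numbers were not taken to pair the samples. With 2 libraries per genotype, small differences in genes of few counts are not detectable at this depth.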
